A study of Mus musculus with 6 samples.

Results

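The STAT transcription factors, the SOCS family proteins that restrain them and the kinase gene Pim1 were followed in splenic CD8+ T cells of mice treated by microwave ablation (MWA) of the primary tumor. The 9 genes were Stat3, Stat4, Stat5a, Stat5b, Socs1, Socs2, Socs3, Cish and Pim1. They were taken by symbol from the 28773 genes listed in each of the 6 expression files, and all 9 were found. The comparison asks how 2-deoxy-D-glucose (2DG), a glucose analogue that blocks glycolysis, changed these genes when it was given after the ablation.

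Both groups had received MWA and were sampled on day 35. The MWA+PBS group (replicates 1 to 3) received the PBS vehicle, and the MWA+2DG group (replicates 4 to 6) received 2DG. By the study's methods the 2DG injections had ended before day 35, so the cells were not sampled during dosing. Tumor cells had been implanted before the ablation, and all mice of the study were female. The strain, the genotype, the tumor line and the age of these mice are not given in the labels. CD8+ T cells were taken from the spleen with a magnetic isolation kit, so other splenic cells can remain in the samples. Nothing in the labels says that each sample was a separate mouse, so p-values measure the spread between these samples. Values are FPKM, the number of sequenced fragments scaled by the length of the transcript and by the size of the library, and means carry the SD of n = 3 samples. Between 22414 and 23340 genes were above 0 in a sample, and the FPKM of a sample summed to between 291802.8 and 313256.6. The files hold no read counts, so the depth behind each value is unknown and counting intervals are not given. The labels name no batch, and were there a batch that ran along with the groups, it and the treatment cannot be told apart.

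Cytokines of the interleukin and interferon families bind receptors that carry Janus kinases (JAKs). The JAKs phosphorylate STAT proteins, which pair, enter the nucleus and switch on target genes. SOCS genes are among these targets, and their proteins bind the receptors or the JAKs and dampen the signal, which closes a feedback loop. PIM kinases are also induced by STATs and promote survival and growth without needing a further activation step. In CD8+ T cells, STAT5 transmits the signals of IL-2, IL-7 and IL-15, STAT4 that of IL-12, and STAT3 those of IL-6, IL-10 and IL-21.

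Sequence around the start sites is shown for the 4 genes in which a script found a letter pattern of this pathway, since these patterns mark where STATs or interferon-induced factors can bind. The windows came from RefSeq (GRCm38.p6), reached from 250 bases before each start to 50 after it, and were found for 8 of the 9 genes, in 12 windows. Capitals mark the matches, and each sequence is written 5′ to 3′ along the strand of the gene.
Cish, chr9:107296654-107296683, plus strand: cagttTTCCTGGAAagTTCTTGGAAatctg
Socs3, chr11:117969467-117969566, minus strand: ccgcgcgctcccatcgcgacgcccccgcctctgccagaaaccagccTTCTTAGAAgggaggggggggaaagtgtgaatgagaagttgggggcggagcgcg
Socs1, chr16:10785567-10785666, minus strand: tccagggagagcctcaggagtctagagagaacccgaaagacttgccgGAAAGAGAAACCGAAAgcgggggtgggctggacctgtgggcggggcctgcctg
Stat4, chr1:52008100-52008199, plus strand: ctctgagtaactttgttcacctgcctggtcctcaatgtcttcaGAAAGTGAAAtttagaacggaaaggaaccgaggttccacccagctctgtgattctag

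The pattern TTCNNNGAA, the core letters of a STAT binding site, reads the same on both strands. It was found at bases 1 to 9 and again at bases 12 to 20 after the Cish start, and from 154 to 146 bases before the Socs3 start. Of all 32851 windows, 8.3% held it. The related pattern TTCNNNNGAA, which STAT6 favours, was in 6.95% of all windows and in none of the 12. GAAANNGAAA, searched on both strands as the core of the interferon-stimulated response element, was in 3.44% of all windows. It was found from 97 to 88 bases before 1 of the Stat4 starts, and before the Socs1 start from 83 to 74 and, overlapping that match, from 77 to 68. The windows of Stat3, Stat5a, Stat5b and Pim1 held none of these letters, and a match is a description of the sequence only.

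Of the 9 genes, 8 averaged at least 1 FPKM over the 6 samples and were tested with limma on log2(FPKM + 1). Stat4 and Socs1 were higher in MWA+2DG, Socs3 and Pim1 were lower, and Stat3, Stat5a, Stat5b and Cish did not pass the test. The call was made at a Benjamini-Hochberg adjusted p under 0.05 over all 12444 tested genes, of which 39.4% were called, 22.3% as higher and 17.1% as lower. By the rule in the study's methods, which asks for P under 0.05 and a log2 fold change above 0.25 or below -0.25, the same 4 genes were called, against 38.2% of all tested genes. The 2 groups did not overlap in 4 of the 8 genes, against 52.1% of all tested genes. The 8 genes had a median log2 fold change of 0.02, against 0.05 for all tested genes. The share of these genes that was called was therefore near that of the transcriptome, and what follows describes which of them moved and by how much.

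**Figure D1:**
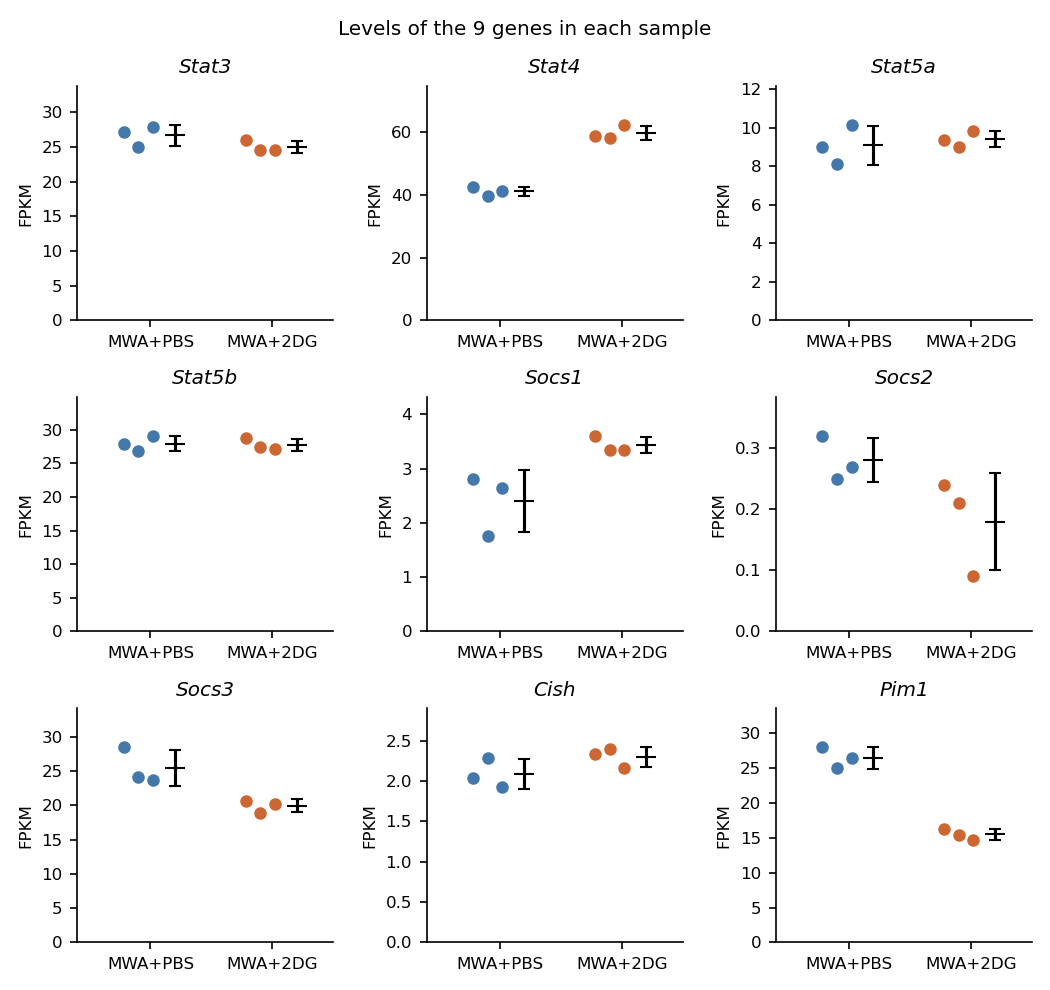
FPKM of each of the 9 genes (vertical axes, each starting at 0) in the 3 MWA+PBS samples (blue) and the 3 MWA+2DG samples (orange), with the mean and SD of each group in black. Stat4 and Socs1 lay higher and Pim1, Socs3 and Socs2 lower in every MWA+2DG sample, while the groups overlapped for Stat3, Stat5a, Stat5b and Cish.

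Of the 4 STAT genes among the 9, Stat4 (ENSMUSG00000062939), whose protein carries the IL-12 signal toward interferon-gamma production, was the most abundant per length in both groups. It was 42.72, 39.70 and 41.23 FPKM in MWA+PBS against 58.75, 58.16 and 62.37 FPKM in MWA+2DG. Each MWA+2DG sample lay above each MWA+PBS sample, and the samples within a group stood close together. The means were 41.2 ± 1.51 and 59.8 ± 2.28 FPKM, a ratio of 1.45. The log2 fold change was 0.53 ± 0.05 (SE), with a 95% interval from 0.40 to 0.65 (limma adjusted p = 0.000272). Its size was larger than that of 83.2% of the tested genes. When the samples were scaled to 13 T cell identity genes, 12 of which rose themselves, the log2 fold change of Stat4 was 0.09 (limma adjusted p = 0.194). Stat4 therefore rose relative to the whole library, and a rise relative to T cell transcripts was not detected.

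Stat3 (ENSMUSG00000004040), which acts downstream of IL-6, IL-10 and IL-21, was 27.20, 24.98 and 27.79 FPKM in MWA+PBS against 26.03, 24.50 and 24.59 FPKM in MWA+2DG. The groups overlapped, with a log2 fold change of -0.09 ± 0.06 (SE), a 95% interval from -0.22 to 0.05 and a limma adjusted p of 0.288. Stat5b (ENSMUSG00000020919), which with Stat5a serves IL-2, IL-7 and IL-15, had the smallest difference of the 8 genes. It was 27.89, 26.80 and 29.06 FPKM in MWA+PBS against 28.82, 27.44 and 27.13 FPKM in MWA+2DG (log2 fold change -0.01 ± 0.05, SE, 95% interval -0.13 to 0.12, limma adjusted p = 0.942). Stat5a (ENSMUSG00000004043) was lower than Stat5b in each sample. It was 9.0, 8.10 and 10.13 FPKM in MWA+PBS against 9.37, 9.01 and 9.83 FPKM in MWA+2DG (log2 fold change 0.05 ± 0.08, SE, 95% interval -0.14 to 0.24, limma adjusted p = 0.665). Relative to the T cell identity genes Stat3 was lower by the test at -0.52, Stat5a at -0.39 and Stat5b at -0.44 on the log2 scale (limma adjusted p = 0.000294, 0.00671 and 0.000565), while under the 3 other scalings tried they stayed near 0 and were not called.

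Stat5a and Stat5b are neighbouring copies of 1 ancestral gene. Their GENCODE M21 transcripts share a run of 324 identical bases, longer than a read of 150 bases, and 21.8% of the longest Stat5a transcript lies in shared runs of at least 50 bases. The authors' quantification could split such reads between them, so the separate values are uncertain, while their sum is less so. The sum of Stat5a and Stat5b was 36.89, 34.90 and 39.19 FPKM in MWA+PBS against 38.19, 36.45 and 36.96 FPKM in MWA+2DG, and the groups overlapped. Stat5a held 24.5% ± 1.32 of that sum in MWA+PBS and 25.3% ± 1.14 in MWA+2DG.

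Stat4 made up a larger share of the 4 STAT transcripts in MWA+2DG. Such shares within a sample do not depend on how the samples are scaled to each other. Stat4 held 40.0%, 39.9% and 38.1% of the summed FPKM of Stat3, Stat4, Stat5a and Stat5b in MWA+PBS and 47.8%, 48.8% and 50.3% in MWA+2DG. The share of Stat3 went from 25.4% ± 0.302 to 20.5% ± 0.663, and that of Stat5b from 26.6% ± 0.447 to 22.8% ± 0.801. Stat5a held 8.64% ± 0.641 and 7.71% ± 0.199. The groups did not overlap for any of the 4 shares. Shares of a sum are tied, so a larger Stat4 share lowers the others, and the levels of Stat3, Stat5a and Stat5b were not called. Relative to the whole library, the summed FPKM averaged 104.9 ± 4.63 in MWA+PBS against 122.0 ± 2.55 in MWA+2DG.

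**Figure D2:**
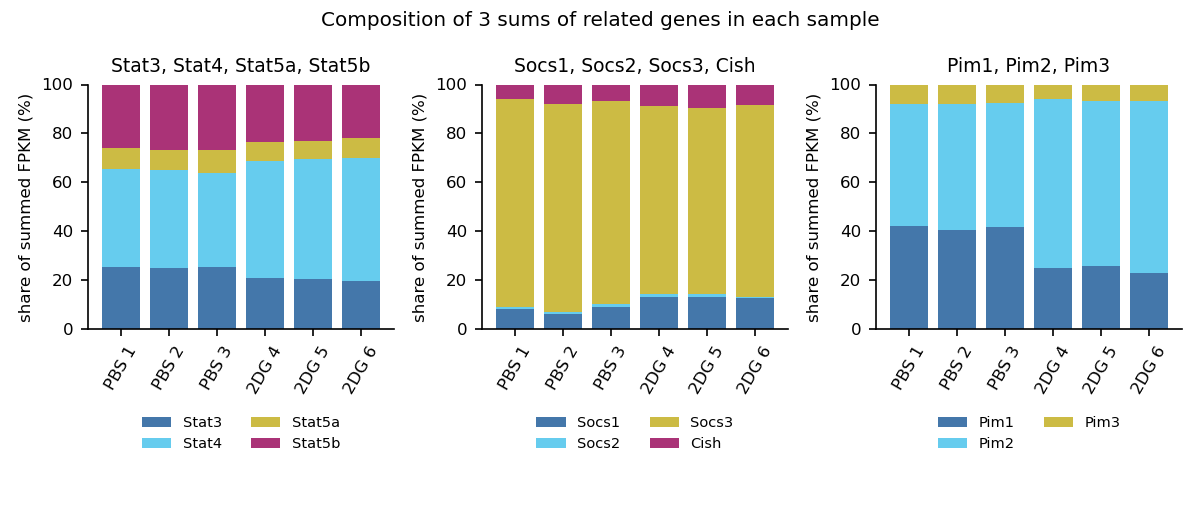
Share of each gene in a summed FPKM (vertical axes, percent) in each of the 6 samples, for the sum of Stat3, Stat4, Stat5a and Stat5b, the sum of Socs1, Socs2, Socs3 and Cish, and the sum of Pim1, Pim2 and Pim3. Other STAT and SOCS genes are not in these sums. On average the Stat4 share went from 39.3% in MWA+PBS to 49.0% in MWA+2DG, the Socs3 share from 84.2% to 77.2%, and the Pim1 share from 41.6% to 24.6%.

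Of the 4 feedback inhibitors among the 9, Socs3 (ENSMUSG00000053113), which binds receptors such as the IL-6 receptor chain gp130 and blocks the JAKs there, was by far the most abundant per length. It was 28.53, 24.20 and 23.74 FPKM in MWA+PBS against 20.72, 18.96 and 20.27 FPKM in MWA+2DG. All MWA+2DG samples lay below all MWA+PBS samples, of which replicate 1 was the highest. The means were 25.5 ± 2.64 and 20.0 ± 0.914 FPKM, a ratio of 1.28 of MWA+PBS over MWA+2DG. The log2 fold change was -0.33 ± 0.08 (SE, 95% interval -0.52 to -0.15, limma adjusted p = 0.0135).

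Socs1 (ENSMUSG00000038037), an inhibitor of JAKs in interferon and gamma chain cytokine signalling, moved the other way from a low level. It was 2.81, 1.76 and 2.65 FPKM in MWA+PBS against 3.6, 3.35 and 3.35 FPKM in MWA+2DG. The groups did not overlap, though MWA+PBS replicate 2 stood well below the other 2 samples of its group. The means were 2.41 ± 0.566 and 3.43 ± 0.144 FPKM, a ratio of 1.43, and the log2 fold change was 0.39 ± 0.13 (SE, 95% interval 0.10 to 0.69, limma adjusted p = 0.0427). Without MWA+PBS replicate 2 the log2 fold change was 0.249, which is called at the adjusted p (limma adjusted p = 0.0407) and not by the study's rule. This call was close to the threshold. It was lost without MWA+PBS replicate 3 (limma adjusted p = 0.0523), without MWA+2DG replicate 4, 5 or 6 (0.116, 0.0858 and 0.0887), and under quantile or median ratio scaling (0.052 and 0.0568), and the log2 fold change was -0.04 relative to the T cell identity genes.

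Cish (ENSMUSG00000032578), a target of STAT5 that dampens IL-2 and T cell receptor signalling, was 2.04, 2.29 and 1.93 FPKM in MWA+PBS against 2.33, 2.40 and 2.16 FPKM in MWA+2DG. The groups overlapped, and the log2 fold change was 0.10 ± 0.08 (SE, 95% interval -0.10 to 0.29, limma adjusted p = 0.399). With the values as deposited, Cish differed by less than the test could resolve, as did Stat5a and Stat5b. Relative to the T cell identity genes Cish was lower, at -0.34 (limma adjusted p = 0.0112), as were Stat5a and Stat5b. Socs2 (ENSMUSG00000020027), an inhibitor of growth hormone signalling that STAT5 also induces, was close to absent at 0.32, 0.25 and 0.27 FPKM in MWA+PBS against 0.24, 0.21 and 0.09 FPKM in MWA+2DG. It fell under the minimum level and was not tested. The groups did not overlap, but at values this near 0 and with depth unknown no change is read from them.

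Within the sum of Socs1, Socs2, Socs3 and Cish, which leaves out Socs4 to Socs7, Socs3 held 84.7%, 84.9% and 83.0% in MWA+PBS against 77.1%, 76.1% and 78.4% in MWA+2DG. Socs1 held 7.93% ± 1.59 and 13.3% ± 0.271, and Cish 6.95% ± 1.01 and 8.88% ± 0.668. The groups did not overlap for these 3 shares, and they overlapped for Socs2, at 0.924% and 0.694% on average. These shares are tied too, so a smaller Socs3 share raises the others, and the level of Cish was not called. The summed level was 30.3 ± 2.98 FPKM in MWA+PBS against 25.9 ± 0.985 FPKM in MWA+2DG.

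Pim1 (ENSMUSG00000024014), a serine and threonine kinase gene induced by STAT3 and STAT5, had the largest difference of the 8 genes. It was 27.99, 24.95 and 26.36 FPKM in MWA+PBS against 16.28, 15.41 and 14.72 FPKM in MWA+2DG. The groups were far apart compared with the spread within each. The means were 26.4 ± 1.52 and 15.5 ± 0.782 FPKM, a ratio of 1.71 of MWA+PBS over MWA+2DG. The log2 fold change was -0.74 ± 0.06 (SE, 95% interval -0.89 to -0.59, limma adjusted p = 0.000123), larger in size than that of 90.5% of the tested genes. Pim1 and Socs3 were called as lower at the adjusted p under each of 15 refits, including the T cell identity scaling, where they were -1.17 and -0.77. Neither passed an added threshold of 1 on the log2 fold change as deposited.

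The other 2 PIM kinase genes did not move with Pim1 as a group. Pim2, a kinase with overlapping substrates that supports lymphocyte survival, was 32.69, 31.43 and 31.98 FPKM in MWA+PBS against 45.16, 40.35 and 44.60 FPKM in MWA+2DG. It was higher in every MWA+2DG sample, and the log2 fold change was 0.42 with an SE of 0.06 (limma adjusted p = 0.00117). Relative to the T cell identity genes it was -0.01 (limma adjusted p = 0.857). Pim3 was lower, at 5.06 ± 0.214 and 4.09 ± 0.23 FPKM (log2 fold change -0.25 with an SE of 0.07, limma adjusted p = 0.0221). Relative to the T cell identity genes Pim3 was -0.69 (limma adjusted p = 0.000123), a decrease as for Pim1. Relative to the whole library, the 3 genes summed to 63.5 ± 2.33 FPKM in MWA+PBS against 62.9 ± 2.8 in MWA+2DG, within the spread of the samples. The share of Pim1 in it was 42.4%, 40.7% and 41.7% in MWA+PBS against 24.9%, 25.7% and 23.1% in MWA+2DG, while the share of Pim2 went from 50.5% ± 0.849 to 68.9% ± 1.35.

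The order of the 9 genes by mean FPKM changed with these differences. In MWA+PBS, Stat4 was the highest. Stat5b, Stat3, Pim1 and Socs3 followed between 25.5 and 27.9 FPKM, and neighbours in this run did not differ beyond their spread. Stat5a came next at 9.08 FPKM, then Socs1 and Cish with overlapping ranges, and Socs2 last. In MWA+2DG no neighbouring ranges overlapped, and the order was Stat4, Stat5b, Stat3, Socs3, Pim1, Stat5a, Socs1, Cish and Socs2. Socs3 and Pim1 thus left the level they had shared with Stat3 and Stat5b.

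**Figure D3:**
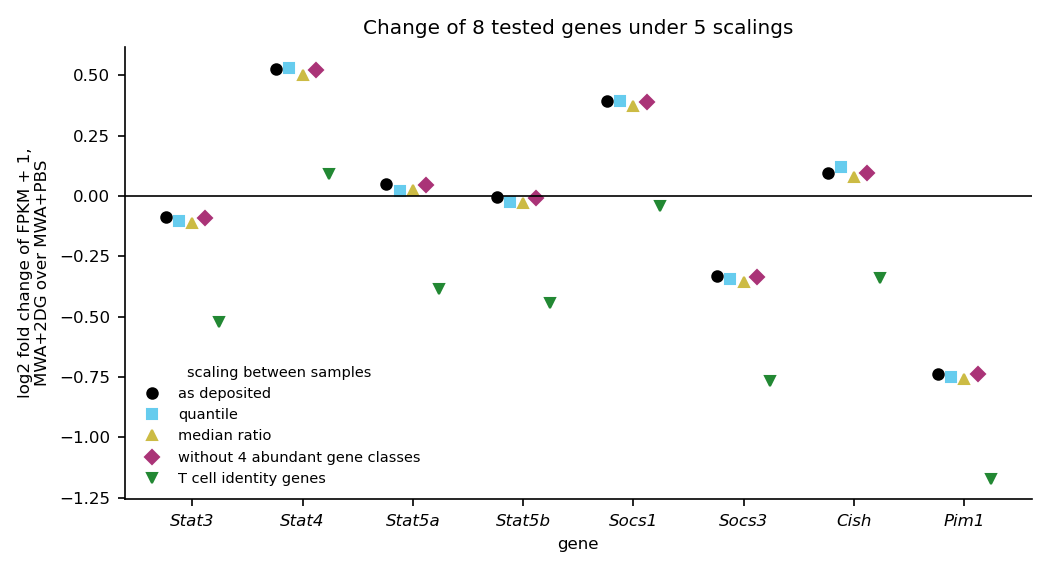
Log2 fold change of FPKM + 1 (vertical axis, MWA+2DG over MWA+PBS) of the 8 tested genes under 5 scalings of the samples to each other, with 1 symbol for each scaling. The values as deposited and 3 other scalings lay close together for each gene, while scaling to T cell identity genes lowered all 8, taking Stat4 from 0.53 to 0.09 and Pim1 from -0.74 to -1.17.

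Markers of T cells and of other cells differed between the groups, and some of the 9 genes are also transcribed by other blood cells. The 13 T cell identity genes summed to between 1443 and 1513 FPKM in MWA+PBS and between 1988 and 2126 FPKM in MWA+2DG, and 12 rose. Cd8a was 231.5 ± 6.96 and 366.4 ± 9.48 FPKM. Of 12 neutrophil markers 10 rose and 1 fell, with sums from 290 to 313.4 FPKM in MWA+PBS and from 1583 to 1756 FPKM in MWA+2DG, and Ly6g went from 0.537 ± 0.255 to 19.3 ± 0.305 FPKM. The marker that fell was Mpo, at 226.1 ± 22.2 and 33.4 ± 0.847 FPKM, and without it the sums ran from 65.7 to 89.5 FPKM in MWA+PBS and from 1549 to 1724 FPKM in MWA+2DG. All 12 monocyte and macrophage markers fell, with sums from 678.6 to 739.6 and from 102.7 to 111.4 FPKM, Csf1r among them (67.8 ± 5.85 and 10.5 ± 0.0945 FPKM). All 7 B cell markers rose, from sums of 8.89 to 10.1 FPKM to sums of 48.5 to 53.5 FPKM, and all 6 erythroid markers fell, from 189.3 to 222.3 FPKM to 41.6 to 56.0 FPKM. Of the few natural killer, CD4 T cell and dendritic cell markers tested, 1 of 1, 2 of 3 and 1 of 1 fell, and Cd4 was 2.75 ± 0.16 and 1.66 ± 0.11 FPKM. No marker gene was at 0 in every sample of a group. The part of these cells in the differences of Stat4, Socs1, Socs3 and Pim1 was not tested. In bulk samples, fewer cells of a type and less RNA per cell cannot be told apart.

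Pim1 and Socs3 are also rapidly induced genes, and the immediate early and heat shock genes moved in the same direction. Of 16 such genes, 14 fell and 0 rose, with a median log2 fold change of -1.58 against 0.05 for all tested genes. They summed to between 1552 and 1630 FPKM in MWA+PBS and between 502.6 and 526.8 FPKM in MWA+2DG. The part of this response in the difference of Pim1 or Socs3 was not tested.

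The tested genes whose profile was most like that of Pim1 over the 6 samples were Zfp36, Sil1 and Csrp1, judged by the root mean square difference of mean-centred log2(FPKM + 1). That difference was 0.016 for Zfp36, an immediate early gene whose protein promotes mRNA decay, 0.0215 for Sil1 and 0.0408 for Csrp1. Zfp36 was 93.8 ± 4.67 FPKM in MWA+PBS against 56.3 ± 2.22 FPKM in MWA+2DG, and its log2 fold change was -0.73 against -0.74 for Pim1. The profiles most like that of Stat4 belonged to Ccar2, Grk6 and Rgs3, with differences of 0.022, 0.0303 and 0.0308 and log2 fold changes of 0.50, 0.48 and 0.49. Choosing genes by a close profile brings close fold changes with it, so these likenesses are a description and no separate evidence.

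The rest of the pathway was followed through 7 lists of 60 genes, of which 43 could be tested. In MWA+2DG 14 were higher, 9 were lower and 20 did not pass the limma test, with a median log2 fold change of 0.09. The groups did not overlap for 29 of the 43. As for the 9 genes, these shares stand beside 39.4% called and 52.1% without overlap over all tested genes. Relative to the T cell identity genes the median over all tested genes was -0.39, a shift of -0.436, so the rises named below are relative to the whole library.

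Most ligand genes were low in the samples. Of 15 cytokine genes, 2 reached the minimum level. Osm, the gene of oncostatin M, was lower, at 7.81 ± 0.627 and 6.43 ± 0.488 FPKM (log2 fold change -0.24, limma adjusted p = 0.0448). Ifng, the interferon-gamma gene that STAT4 induces, was 2.20 ± 0.451 and 2.14 ± 0.642 FPKM, with overlapping groups.

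The receptor chains held most of the movement, with 9 of 19 tested genes higher, 5 lower and 5 not called. Il12rb1, a chain of the IL-12 and IL-23 receptors that act through STAT4 and STAT3, had the largest increase among the tested chains. It was 2.45, 2.28 and 2.60 FPKM in MWA+PBS against 4.26, 3.96 and 4.27 FPKM in MWA+2DG (log2 fold change 0.58 ± 0.07, SE, limma adjusted p = 0.000714). The partner chain Il12rb2, named here after its values were seen, missed the minimum level with a mean of 0.997 FPKM and was not tested. It was 1.21, 1.28 and 1.51 FPKM in MWA+PBS against 0.45, 0.55 and 0.98 FPKM in MWA+2DG, and no change is read from values this low. Il9r, the IL-9 receptor chain, also missed that level and was named after its values were seen. It was 0.213 ± 0.0651 FPKM in MWA+PBS against 1.0 ± 0.148 FPKM in MWA+2DG with no overlap, and again no change is read. Il23r (0.57), Ifnar1 (0.50) and Il2rg (0.48), the common gamma chain, had the next largest increases on the log2 scale, with limma adjusted p of 0.0451, 0.000254 and 0.00124. Il23r lay at 0.48, 0.78 and 0.80 FPKM in MWA+PBS and spread from 0.96 to 2.19 FPKM in MWA+2DG. The ratio of its means was 2.24 against 1.70 for Il12rb1, since adding 1 to FPKM shrinks the change of low genes more. Il23r, 1 of the 9 chains counted as higher, reached the minimum level only through MWA+2DG, so no change is read from its call.

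The largest decrease was that of Csf2rb, the shared chain of the GM-CSF, IL-3 and IL-5 receptors, which acts through STAT5 mainly in myeloid cells and has a close copy, Csf2rb2, with which it could share reads. It was 9.21, 7.76 and 9.69 FPKM in MWA+PBS against 3.29, 3.18 and 3.10 FPKM in MWA+2DG (log2 fold change -1.23 with an SE of 0.09, limma adjusted p = 4.24e-05). Ifngr2, Il10ra and Il2rb followed with log2 fold changes of -0.51, -0.28 and -0.24 (limma adjusted p = 0.00216, 0.00705 and 0.0225). Il2rb, the chain through which IL-2 and IL-15 engage STAT5, was 117.0 ± 8.41 and 99 ± 2.31 FPKM. Its partner Il2rg was 173.3 ± 10.6 and 242.0 ± 12.5 FPKM, so these chains of the same receptor moved in opposite directions relative to the library.

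**Figure D4:**
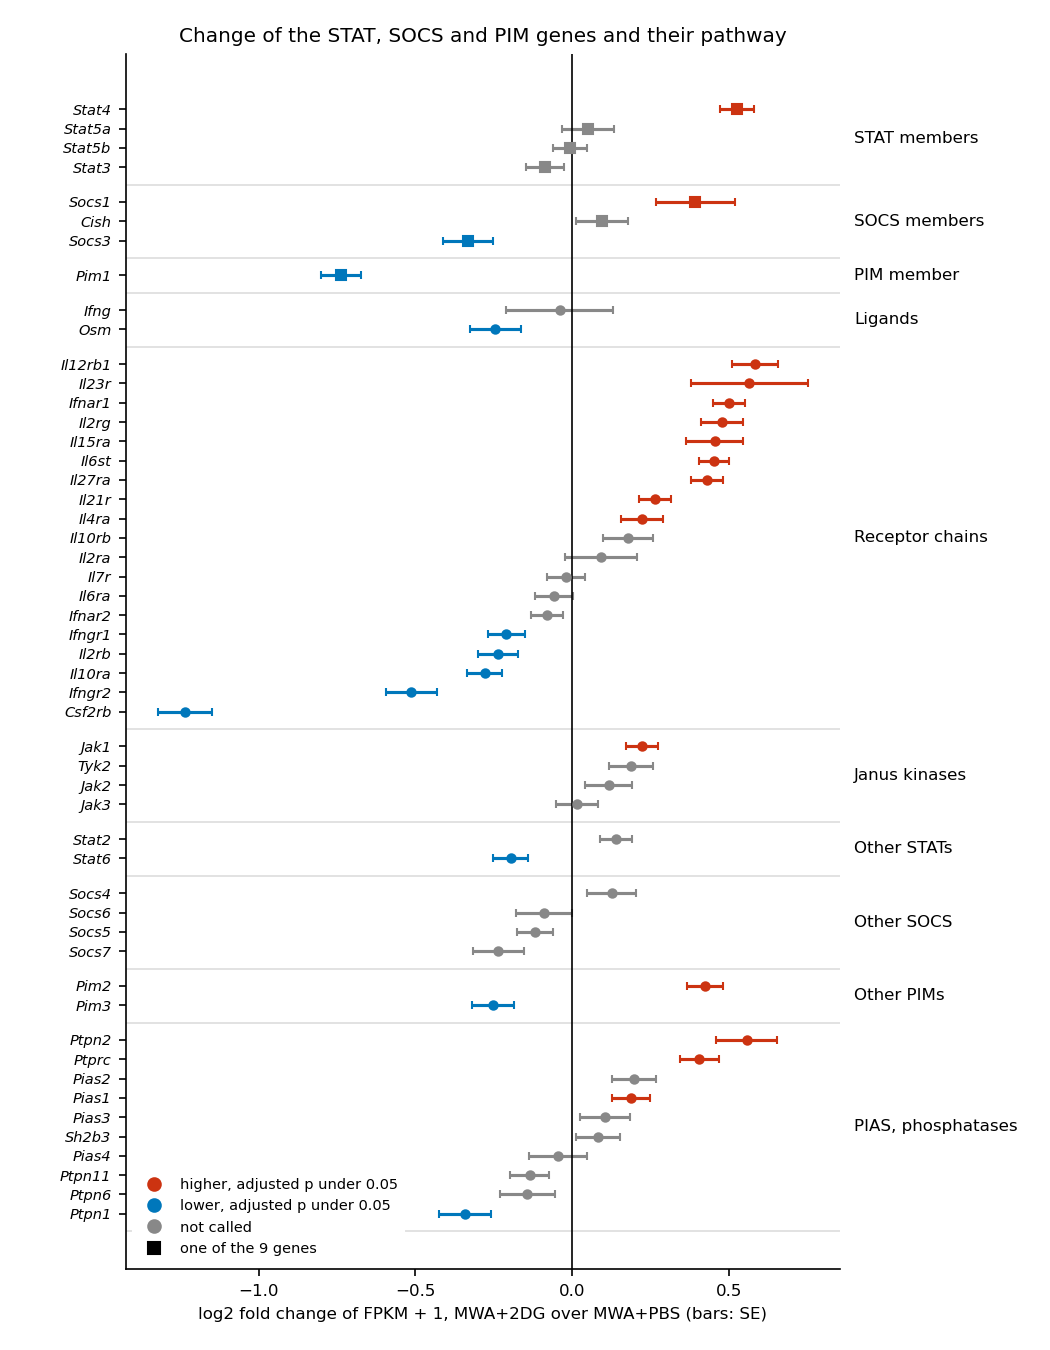
Log2 fold change of FPKM + 1 with its SE (horizontal axis, MWA+2DG over MWA+PBS) for the 8 tested genes of the 9 (squares) and the 43 tested genes of the 7 pathway lists (circles), in red where higher, blue where lower and grey where not called at an adjusted p under 0.05. The receptor chains run from -1.23 for Csf2rb to 0.58 for Il12rb1, while the Janus kinases and the other SOCS genes lay between -0.23 and 0.22.

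Of the 4 Janus kinases, Jak1 was higher, at 149.7 ± 4.25 and 175.1 ± 4.66 FPKM (log2 fold change 0.22 ± 0.05, SE, limma adjusted p = 0.0113), and the other 3 did not pass. Of the 2 other STAT genes followed, Stat6, the factor of IL-4, was lower, at 58.0 ± 1.65 and 50.6 ± 2.5 FPKM (log2 fold change -0.19, limma adjusted p = 0.0276). Stat2, which serves type I interferons, was 0.14 higher on the same scale and missed the threshold (limma adjusted p = 0.0608). None of the other 4 SOCS genes, Socs4 to Socs7, was called with limma. Their log2 fold changes lay between -0.23 and 0.13, and the groups did not overlap for 2 of them. The differences in the SOCS family were therefore called in Socs1 and Socs3 and in no other of the 7 tested members, Cish included.

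Of 10 PIAS proteins, phosphatases and adaptors that restrain JAKs and STATs, 3 were higher, 1 was lower and 6 were not called. Ptpn2, a phosphatase of JAKs and STATs in the nucleus and cytoplasm, had the largest increase. It was 12.09, 15.53 and 12.87 FPKM in MWA+PBS against 21.13, 18.61 and 21.04 FPKM in MWA+2DG (log2 fold change 0.56 ± 0.10, SE, limma adjusted p = 0.00344). Ptpn1, its close relative at the endoplasmic reticulum, went the other way, at 30.9 ± 3.2 and 24.1 ± 1.15 FPKM (-0.34 ± 0.08, SE, limma adjusted p = 0.0139). Ptprc, the gene of CD45, rose by 0.41 and Pias1 by 0.19 on the log2 scale.

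Genes that each STAT is known to induce did not move as a block, and their counts stand beside the 22.3% of all tested genes that were higher and the 17.1% that were lower. Of 9 STAT5 targets, 4 were higher, 2 were lower and 3 were not called, with a median log2 fold change of 0.09. Lta, the lymphotoxin alpha gene, was 2.34, 2.08 and 1.98 FPKM in MWA+PBS against 4.65, 3.72 and 4.63 FPKM in MWA+2DG (log2 fold change 0.76 ± 0.10, SE, limma adjusted p = 0.000765). The survival gene Bcl2 rose by 0.44 from 25.8 ± 0.404 to 35.3 ± 1.31 FPKM (limma adjusted p = 0.000487). The survival gene Mcl1 was lower, at -0.20 (limma adjusted p = 0.019). The cyclin genes Ccnd2 and Ccnd3 and the IL-2 receptor gene Il2ra were the 3 genes not called.

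Of 6 tested STAT4 targets, 3 were higher, 1 was lower and 2 were not called, with a median of 0.16. The IL-18 receptor genes Il18r1 and Il18rap had log2 fold changes of 0.63 and 0.60 (limma adjusted p of 0.000117 for both). Il18r1 was 23.62, 23.25 and 22.64 FPKM in MWA+PBS against 36.53, 38.28 and 34.78 FPKM in MWA+2DG. Tbx21, the gene of the effector factor T-bet, was 0.35 higher (limma adjusted p = 0.00185). Hlx, a partner of T-bet, was lower, at 1.59 ± 0.404 and 0.683 ± 0.105 FPKM (-0.61, limma adjusted p = 0.0103). Hlx, the 1 gene counted as lower, reached the minimum level only through MWA+PBS, so no change is read from its call.

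Of 8 tested STAT3 targets, 2 were higher, 5 were lower and 1 was not called, with a median of -0.50. The decreases were led by Fos (-2.63), Maf (-1.60), Junb (-1.27) and Bcl3 (-0.79), with limma adjusted p of 2.69e-07, 1.35e-05, 5.46e-06 and 0.000964. Fos and Junb also stand in the immediate early list, and Maf is a factor of macrophages as well as of T cells. Il6st, the gene of gp130, was the larger of the 2 increases, at 24.0 ± 0.348 and 33.2 ± 0.661 FPKM (log2 fold change 0.45, limma adjusted p = 0.000292). The part of the macrophage and immediate early transcripts in this list's decreases was not tested.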

How the data were processed

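RNA of 6 splenic CD8+ T cell samples was sequenced as poly(A), strand-marked libraries with molecular identifiers. The deposited files hold FPKM per gene, which the authors computed with StringTie and ballgown after quality control with fastp and mapping with HISAT2. The submitters' processing notes name cutadapt 1.9, HISAT2 2.0.4, UMI-tools, StringTie 1.3.4d and the build mm9, and for the annotation, the sources used here name none. Since FPKM is a share of the library, a transcript that gains lowers the others. Values carry 2 decimals, and those below 0.1 took all 9 steps of 0.01 in each sample, so reads could not be recovered.

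Symbols came from the GENCODE M21 gene table and were found for 28689 of 28773 IDs. Genes with a mean FPKM of at least 1 (12444) were fitted as log2(FPKM + 1) in limma 3.58.1 (lmFit, eBayes with a trend, R 4.3.3), two-sided, MWA+2DG minus MWA+PBS, with no covariate. Fold changes on this scale understate the change of low genes. Benjamini-Hochberg adjustment covered all tested genes. The fit was tested on simulated data.

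The 9 genes and all lists were chosen with earlier results of these data known. Named were all 9 genes, in each pathway list up to 4 called genes with the largest increase and 4 with the largest decrease, the 3 profiles nearest to Stat4 and Pim1, and defining or abundant markers. Other genes named were chosen after their values were seen. No set test was run. Alternatives were a pseudocount of 0.1, no filter, a mean FPKM of at least 5, quantile, median ratio and T cell identity scaling, rescaling after removal of 581 genes (haemoglobins, immunoglobulins, ribosomal proteins and mitochondrial genes), arrayWeights, eBayes without a trend, a threshold of 1 on the log2 fold change, and leaving out each sample.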

Additional observations from a re-analysis of the deposited data

How the results depend on the processing

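Each of the 8 tested genes was recomputed under up to 15 alternatives, 118 values in all. Of these, 101 kept their direction and their side of the threshold, 8 kept the direction but lost the call, 2 kept it and gained a call, and 7 changed sign. Scaling to the 13 T cell identity genes had the widest effect. It took the log2 fold changes of Socs1 to -0.042, Stat5a to -0.39 and Cish to -0.34, so that Socs1 lost its call while Stat5a and Cish were called as lower. It also called 9094 genes at the adjusted p and 8574 by the study's rule, 5.0% and 4.63% of them higher against 56.5% of each before. The largest shift of the median of all genes under another scaling was -0.02. Stat4 and Pim1 kept their sign under each refit, and Stat4 lost its call at the adjusted p only under that scaling. With each sample left out in turn the log2 fold change of Stat5a ran from -0.0209 to 0.124 and that of Stat5b from -0.0338 to 0.0226, and neither was called. Socs1 was also not called with no filter on low values (limma adjusted p = 0.117). At a minimum mean of 5 FPKM, 2951 genes were called at the adjusted p and 2562 by the study's rule, since fewer genes (7313) were tested, and Socs1 and Cish were not among them. With the values as deposited, 0 of the 8 genes passed a threshold of 1 on the log2 fold change. Leaving out samples gave from 3669 to 5152 called genes at the adjusted p, and from 4509 to 5030 by the study's rule. No paired analysis was possible because the replicate numbers of MWA+PBS and MWA+2DG are not shared. The depth is unknown, and the 95% intervals given with each gene show what change 3 samples a group could resolve.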
